A study of Rattus norvegicus with 18 samples.

Results

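Liver RNA was examined for 10 genes of the Notch pathway, which are the receptors Notch1, Notch2, Notch3 and Notch4, the ligands Jag1 and Dll4, the target genes Hes1, Hey1 and Heyl, and the nuclear factor Rbpj. The genes were chosen by symbol from the 32623 genes of each count table, and each of the 10 symbols was found. Rbpj had 2 entries, and the other 9 had 1 each. The samples were livers of 6 control, 6 NASH and 6 NASH-CH male Wistar rats, with 1 library per rat. Control rats received standard chow and normal water for 12 weeks. NASH rats inhaled CCl4, a hepatotoxin, with phenobarbital in the drinking water for 6 weeks, and were then fed an HFCD, a diet high in fat and cholesterol, over 4 weeks. In NASH-CH rats exposure to CCl4 and phenobarbital lasted 24 weeks, with the HFCD added over the last 16, and this protocol was designed to reach cirrhosis. The controls thus match neither model in duration, and the ages of the rats are not given in the sources used here.

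Notch receptors are membrane proteins that are activated by ligands on a neighbouring cell. Ligand binding lets ADAM proteases and then gamma-secretase cut the receptor, and the freed intracellular domain enters the nucleus. There it joins RBPJ and a Mastermind coactivator and switches on repressors of the Hes and Hey families. In liver the pathway is known for bile duct formation through Jag1 and Notch2, for vessel growth through Dll4 and Notch1 in endothelium, and for mural cells through Notch3.

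Libraries held 19498534 to 29491947 counts in control and NASH rats and 44680344 to 60117822 in NASH-CH rats, so depth and NASH-CH status cannot be told apart. Levels are given in CPM, counts scaled to a common library size by the TMM method, and they are not divided by gene length, so levels of different genes are not compared. Of all genes, 12904 passed the filter on low counts and were tested with limma-voom. All 10 members passed it, Rbpj through 1 of its entries (ENSRNOG00000046327). The other Rbpj entry (ENSRNOG00000007797) held 0 to 4 counts per rat and was not tested. Reads of one Rbpj entry could have been assigned to the other, so the level of Rbpj is uncertain to that extent. The 12 hepatocyte marker genes summed to 141329 to 198373 CPM in control rats, 103872 to 163855 in NASH rats and 94470 to 154459 in NASH-CH rats. The medians were 160005, 132779 and 133260 CPM.

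RefSeq promoters of the GRCr8 assembly were available for 8 of the 10 members, in another build than the Rnor_6.0 of the counts. The window of 250 bases before the annotated start is shown for Hes1, the textbook target of the pathway, for Heyl, the target with the highest fold change in NASH-CH rats, and for Jag1, the ligand that varied most closely with Rbpj. Capitals mark TGGGAA, the core of the RBPJ binding motif, searched on both strands. The windows lie at chr11:84213046-84213295 on the minus strand for Hes1, chr5:140793021-140793270 on the plus strand for Heyl and chr3:144894884-144895133 on the minus strand for Jag1.
Hes1: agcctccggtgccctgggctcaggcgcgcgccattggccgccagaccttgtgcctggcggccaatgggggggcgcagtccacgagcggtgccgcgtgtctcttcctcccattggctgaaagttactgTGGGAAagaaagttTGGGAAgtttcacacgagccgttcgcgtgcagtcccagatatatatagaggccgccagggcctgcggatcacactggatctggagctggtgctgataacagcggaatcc
Heyl: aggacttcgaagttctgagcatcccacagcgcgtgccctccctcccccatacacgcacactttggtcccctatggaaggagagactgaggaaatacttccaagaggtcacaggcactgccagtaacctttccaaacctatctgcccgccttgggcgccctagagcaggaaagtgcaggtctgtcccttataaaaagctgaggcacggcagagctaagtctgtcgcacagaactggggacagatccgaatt
Jag1: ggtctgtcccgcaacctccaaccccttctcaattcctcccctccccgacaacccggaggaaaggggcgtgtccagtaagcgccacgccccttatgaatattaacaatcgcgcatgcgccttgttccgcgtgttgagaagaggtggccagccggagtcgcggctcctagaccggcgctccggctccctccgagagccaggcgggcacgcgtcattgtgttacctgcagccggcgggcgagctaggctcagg

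Hes1 had 2 matches, which began 123 and 109 bases before the start, both on the printed strand. Matches were also found for Notch4 and Rbpj, and there were none in these windows for Notch1, Notch2, Notch3, Jag1 and Heyl. TGGGAA occurred in 21.6% of 27457 promoter windows of the same length. The longer form GTGGGAA, which contains TGGGAA, occurred in 5.22% of them and, among the members, in that of Hes1 alone. A match describes letters and is no evidence of binding.

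Few of these genes differed between the groups beyond the spread among rats. No member had an adjusted p under 0.05 in NASH or in NASH-CH relative to control rats, where 3.12% and 17.0% of all tested genes did. Without adjustment 2 members had a p under 0.05 in each of these comparisons, and the shares of all genes were 21.5% and 31.7%. Between NASH-CH and NASH rats 1 member passed, the endothelial ligand Dll4, which was lower in NASH-CH, against 4.2% of all genes, of which 2.39% were lower and 1.81% higher. Without adjustment 4 members had a p under 0.05 there, Notch1, Dll4, Hes1 and Hey1, all lower in NASH-CH, against 17.5% of all genes. No member separated 2 groups without overlap in any of the 3 comparisons, and the shares of all tested genes were 3.16%, 7.11% and 3.46%. With only 10 members, such low counts of calls or of separated groups do not set them apart from all tested genes. The median log2 fold change of the 10 members was 0.21 in NASH and 0.04 in NASH-CH relative to controls and -0.15 in NASH-CH relative to NASH, and over all tested genes it was 0.01 in each comparison.

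**Figure D1:**
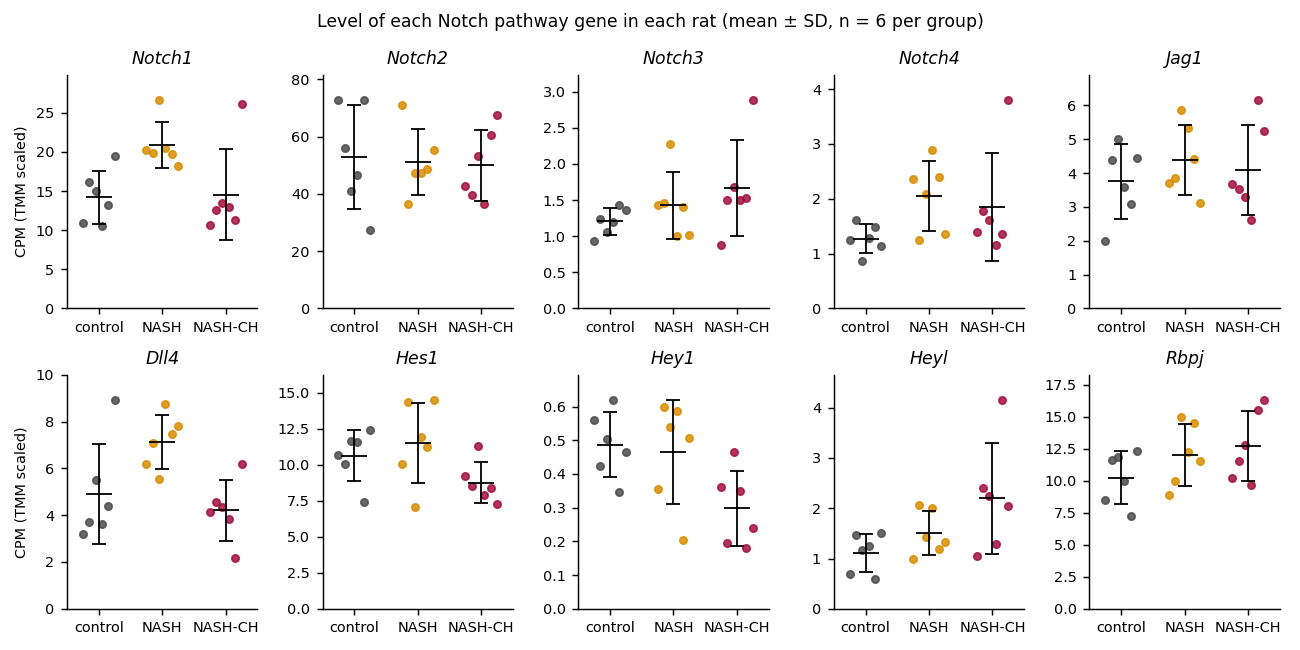
Level of each of the 10 genes in every rat, in CPM (vertical axis, a separate scale from 0 for each gene), by group, with bars for mean ± SD (n = 6). Notch1 and Dll4 sat highest in the NASH rats apart from control rat 6 and NASH-CH rat 6, and the groups overlapped for every gene.

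Among the receptors, Notch1, the main receptor of endothelium, ran from 10.5 to 19.5 CPM in control rats with a median of 14.1. In NASH rats it ran from 18.3 to 26.7 CPM with a median of 20.1, and 5 of 6 rats lay above every control rat. In NASH-CH rats it ran from 10.6 to 26.2 CPM with a median of 12.8, so that all but rat 6 were below every NASH rat. The log2 fold change of NASH relative to control was 0.57 (95% interval 0.16 to 0.98, adjusted p = 0.106), and that of NASH-CH relative to NASH was -0.59 (-0.98 to -0.19, adjusted p = 0.0892). That of NASH-CH relative to control was -0.02 (-0.43 to 0.39). The call on Notch1 changed with single rats and with the settings of the fit. Without control rat 6 the NASH fold change was 0.67 (adjusted p = 0.0472). Without NASH-CH rat 6 it was 0.58 (adjusted p = 0.0268), and the change from NASH to NASH-CH was then -0.78 (adjusted p = 0.00260). Notch1 in NASH also passed with only the 2 groups in the fit (adjusted p = 0.0412) and with sample quality weights (adjusted p = 0.0229). With all rats kept, the change from NASH to NASH-CH passed with no filter on low counts (-0.59, adjusted p = 0.0435) and with quality weights (-0.65, adjusted p = 0.0155).

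Notch2, the receptor tied to bile duct formation, had the flattest profile of the receptors. Its median was 51.4 CPM in control rats (range 27.3 to 72.9), 48.0 in NASH rats (36.5 to 71.1) and 48.0 in NASH-CH rats (36.5 to 67.4). The intervals of its log2 fold change were -0.47 to 0.45 in NASH and -0.53 to 0.43 in NASH-CH relative to controls, which leaves changes of up to 1.37-fold and 1.34-fold upward possible. Control rat 6, the highest control rat for Notch1 and Dll4, was the lowest of all 18 rats for Notch2.

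Notch3, the receptor of vascular smooth muscle, pericytes and stellate cells, was measured at 15 to 157 counts per rat. Its median was 1.22 CPM in control rats (range 0.935 to 1.44), 1.42 in NASH rats (1.01 to 2.28) and 1.52 in NASH-CH rats (0.881 to 2.89). Of the NASH-CH rats 5 were above every control rat and rat 1 was below every control rat, and the log2 fold change was 0.37 (95% interval -0.19 to 0.93, adjusted p = 0.362). Of 14 stellate and mural cell markers tested in the same comparison, 5 were higher and 1 lower (Pdgfra, Rgs5, Col1a1, Tagln and Des higher, Lrat lower). Of all tested genes 8.38% were higher and 8.6% lower. The 16 markers with an entry summed to 355 to 529 CPM against 329 to 441 in controls. The largest part was Col3a1, which did not pass (mean 278 against 236 CPM, adjusted p = 0.283). The part of these markers in the level of Notch3 was not tested.

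Notch4, a receptor mainly of endothelium, had a median of 1.26 CPM in control rats (range 0.858 to 1.62) and 2.22 in NASH rats (1.24 to 2.89). Of the NASH rats 4 exceeded every control rat, and the log2 fold change was 0.62 (95% interval -0.07 to 1.32, adjusted p = 0.287). In NASH-CH rats the median was 1.51 CPM (range 1.16 to 3.81), and rat 6 stood far above the other 5, of which the highest was at 1.78.

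**Figure D2:**
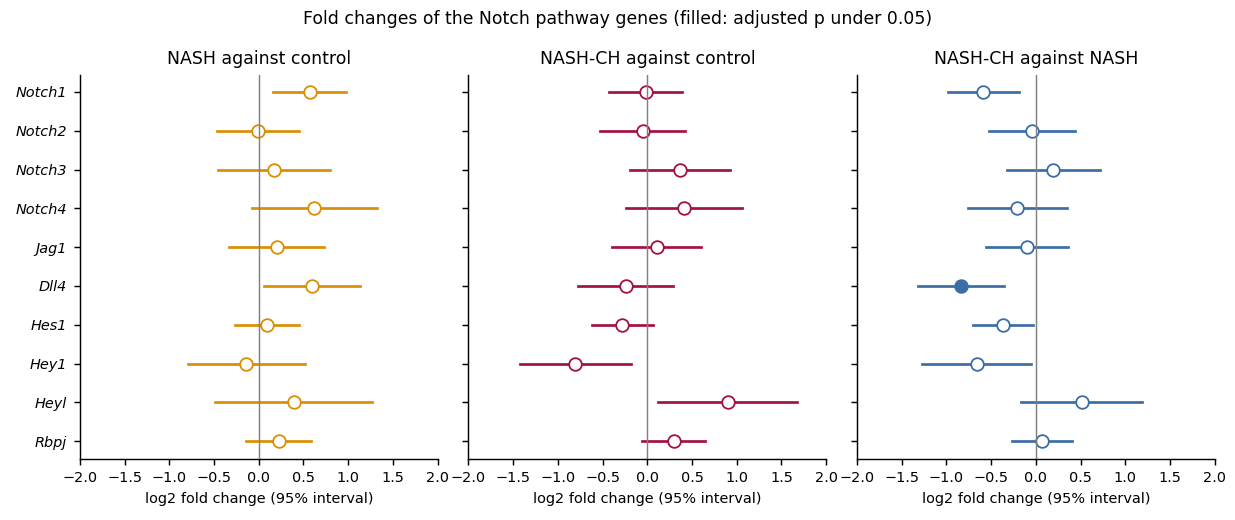
Log2 fold change of each gene with its 95% interval (horizontal axis) in the 3 comparisons, filled where the adjusted p was under 0.05. Dll4 in NASH-CH relative to NASH (-0.84) is the single filled point among 30.

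Of the ligands, Dll4, which sits on endothelial tip and arterial cells, ran from 3.18 to 8.93 CPM in control rats with a median of 4.06. It ran from 5.55 to 8.76 CPM in NASH rats (median 7.27) and from 2.18 to 6.20 CPM in NASH-CH rats (median 4.24). Every NASH rat was above the second highest control rat, at 5.50 CPM, while control rat 6 exceeded all NASH rats. Relative to control the log2 fold change was 0.59 in NASH (95% interval 0.06 to 1.13, adjusted p = 0.188) and -0.24 in NASH-CH (-0.77 to 0.28, adjusted p = 0.534). From NASH to NASH-CH it was -0.84 (SE 0.23, interval -1.32 to -0.36, adjusted p = 0.0458), and 5 of 6 NASH-CH rats lay below every NASH rat. This call was narrow. When single rats were omitted in turn it was lost in 15 of 18 fits and held without control rat 1, control rat 6 or NASH-CH rat 6, while the change ran from -0.97 to -0.64. It was also lost in 5 of 10 other settings, with edgeR's quasi-likelihood test at -0.77 (adjusted p = 0.0757) and DESeq2's Wald test, which kept it, at -0.77 (adjusted p = 0.0301). Without control rat 6 the log2 fold change of NASH relative to control was 0.81 (adjusted p = 0.0491).

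Endothelial markers were set beside Dll4, because in whole liver a smaller number of cells and less RNA per cell cannot be told apart. Of 18 endothelial marker genes tested, none passed in NASH relative to control. In NASH-CH relative to control Vwf and Cd34 were higher and Wnt2 was lower, and in NASH-CH relative to NASH 1 gene, Stab1, was lower. Of all tested genes 3.12%, 17.0% and 4.2% passed in the same order, and the marker counts are near those shares. In NASH-CH relative to NASH 14 of the 18 markers had a log2 fold change below 0, with a median of -0.22 against 0.01 over all tested genes. For 4 of them, Stab1, Oit3, Kdr and Rspo3, 5 of 6 NASH-CH rats lay below every NASH rat, as for Dll4, with Kdr at -0.53 (adjusted p = 0.0556). Their part in the level of Dll4 was not tested. The summed markers ran from 419 to 572 CPM in control, 502 to 565 in NASH and 313 to 517 in NASH-CH rats. NASH-CH rat 5 had the lowest sum and also the lowest Dll4 of all 18 rats, and without it the change of Dll4 from NASH to NASH-CH was -0.64 (adjusted p = 0.0755). Control rat 6 and NASH-CH rat 6, the highest of their groups for Notch1 and Dll4, were each the second highest of their groups for the summed markers, at 533 CPM after 572 and at 513 CPM after 517. The sum is led by Fcgr2b, Kdr, Ehd3, Lyve1 and Stab2, and it was not tested as a measure of the cells that carry Dll4. Per 1000 CPM of summed markers, Dll4 averaged 9.86 ± 3.46 for control rats, 13.3 ± 2.34 for NASH rats and 8.91 ± 1.82 for NASH-CH rats (SD, n = 6), with the means in the same order as the CPM. For Notch1 the values were 29.0 ± 4.94, 38.8 ± 5.21 and 31.4 ± 10.9, also in the order of the CPM. For Notch4 they were 2.67 ± 0.706, 3.815 ± 1.16 and 3.98 ± 1.83. NASH-CH was thus above NASH for Notch4, whereas its mean CPM was lower (1.85 against 2.06). These ratios do not test whether the number of endothelial cells had a part in the levels of these genes. NASH-CH rat 6 also had the lowest summed ribosomal protein transcripts of all rats, 5985 CPM against 6338 to 9822 in the others, whose part in its values was not tested.

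Jag1, the ligand of the portal mesenchyme and bile ducts, did not pass in any comparison. Its median was 4.00 CPM in control rats (range 1.99 to 5.00), 4.14 in NASH rats (3.13 to 5.86) and 3.60 in NASH-CH rats (2.62 to 6.17). Fold changes relative to control were 0.20 in NASH (95% interval -0.33 to 0.73) and 0.10 in NASH-CH (-0.39 to 0.60) on the log2 scale. The highest NASH-CH rat was rat 5, which also had the highest summed level of 11 cholangiocyte markers, 125 CPM against 60.1 to 83.0 in the other NASH-CH rats and 52.2 to 63.0 in control and NASH rats. As a list these markers passed in 1 of 7 tested genes in NASH-CH relative to control (Anxa4, higher) and in none in NASH. Of all tested genes 17.0% and 3.12% passed. Krt7, Sctr and Cdh6 were among those below the filter.

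**Figure D3:**
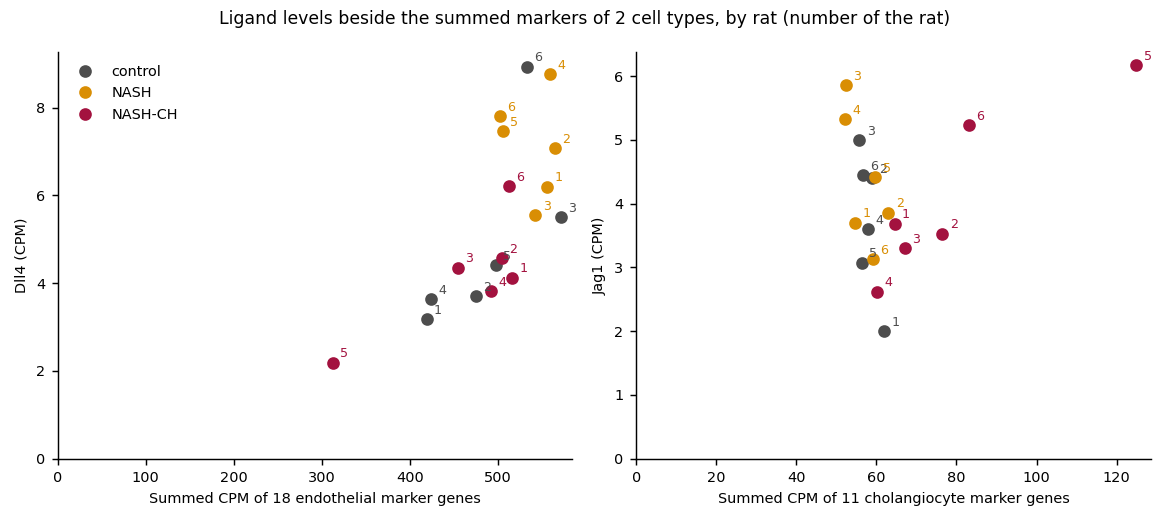
Dll4 against the summed CPM of 18 endothelial marker genes (left) and Jag1 against that of 11 cholangiocyte marker genes (right), 1 point per rat with the number of the rat. NASH-CH rat 5 is lowest for Dll4 and endothelial markers and highest for Jag1 and cholangiocyte markers.

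None of the target genes passed the threshold of the limma-voom fit in any comparison. Hes1, a repressor and the most direct readout of the pathway in many tissues, had a median of 11.1 CPM in control rats (range 7.39 to 12.4), 11.6 in NASH rats (7.06 to 14.5) and 8.45 in NASH-CH rats (7.31 to 11.3). Its log2 fold change was 0.09 in NASH (95% interval -0.26 to 0.44) and -0.28 in NASH-CH (-0.62 to 0.07, adjusted p = 0.256), and 5 of 6 NASH-CH rats were below the control median. These are the narrowest intervals relative to control among the members, and in NASH they allow an increase of up to 1.36-fold.

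Hey1, a repressor in endothelium, was measured at only 6 to 27 counts per rat. Its median was 0.485 CPM in control rats (range 0.347 to 0.620), 0.523 in NASH rats (0.205 to 0.600) and 0.294 in NASH-CH rats (0.182 to 0.464). All 6 NASH-CH rats were below the control median, and the log2 fold change was -0.81 (95% interval -1.43 to -0.18, adjusted p = 0.069). It passed the threshold without NASH-CH rat 3 (-0.96, adjusted p = 0.0358) and without NASH rat 5 (-0.81, adjusted p = 0.0463).

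Heyl, the family member of mural and stellate cells, lay on the other side of 0. Its median was 1.20 CPM in control rats (range 0.595 to 1.51), 1.38 in NASH rats (0.981 to 2.06) and 2.15 in NASH-CH rats (1.04 to 4.16). Of the NASH-CH rats 4 were above every control rat, and the log2 fold change was 0.90 (95% interval 0.12 to 1.68, adjusted p = 0.104). Heyl passed with edgeR's quasi-likelihood test (0.97, adjusted p = 0.0372) and with DESeq2's Wald test (0.97, adjusted p = 0.0186), and without NASH-CH rat 1 in limma-voom (1.08, adjusted p = 0.0334). The stellate and mural markers given beside Notch3 moved in the same comparison, and their part in the level of Heyl was not tested.

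Rbpj, the DNA-binding partner of all 4 receptors, had a median of 10.8 CPM in control rats (range 7.24 to 12.3), 11.9 in NASH rats (8.91 to 15.0) and 12.2 in NASH-CH rats (9.70 to 16.3). The groups overlapped widely, and the log2 fold changes relative to control were 0.22 in NASH (95% interval -0.14 to 0.58, adjusted p = 0.488) and 0.29 in NASH-CH (-0.06 to 0.64, adjusted p = 0.239).

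The members also varied among the rats of a group, and deviations of log2 CPM from the group means were compared for all 45 pairs over the 18 rats by permuting rats within groups. Of these pairs 27 had a Pearson's r above 0, and the median r was 0.14. Jag1 and Rbpj varied together most closely (r = 0.77, permutation p = 0.00074, adjusted p = 0.0175, Spearman's rho = 0.80, permutation p = 0.00055, adjusted p = 0.0247), and r was 0.78 without control rat 1 and NASH-CH rat 5, the rats farthest from the median of Jag1. Notch1 and Notch3 followed (r = 0.75, permutation p = 0.00078, adjusted p = 0.0175), with rho = 0.61 (permutation p = 0.00918, adjusted p = 0.207) and an r of 0.63 without NASH-CH rat 6 and control rat 6. No other pair passed the adjustment. Over all tested genes, 95% had an r below 0.62 with Jag1, 0.59 with Rbpj, 0.62 with Notch1 and 0.51 with Notch3. Some other genes varied more closely with Jag1 than Rbpj did, such as Peak1 (r = 0.89), so close variation is not particular to these pairs. Notch1 and its ligand Dll4 had r = 0.59 (permutation p = 0.042, adjusted p = 0.236) and rho = 0.44 (permutation p = 0.0931), and r fell to 0.21 without NASH-CH rat 6 and control rat 6, so that this relation rests on those rats. The target Hes1 had an r below 0 with each of the 4 receptors, lowest with Notch3 (r = -0.54, permutation p = 0.0251, adjusted p = 0.188, rho = -0.37, permutation p = 0.154).

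**Figure D4:**
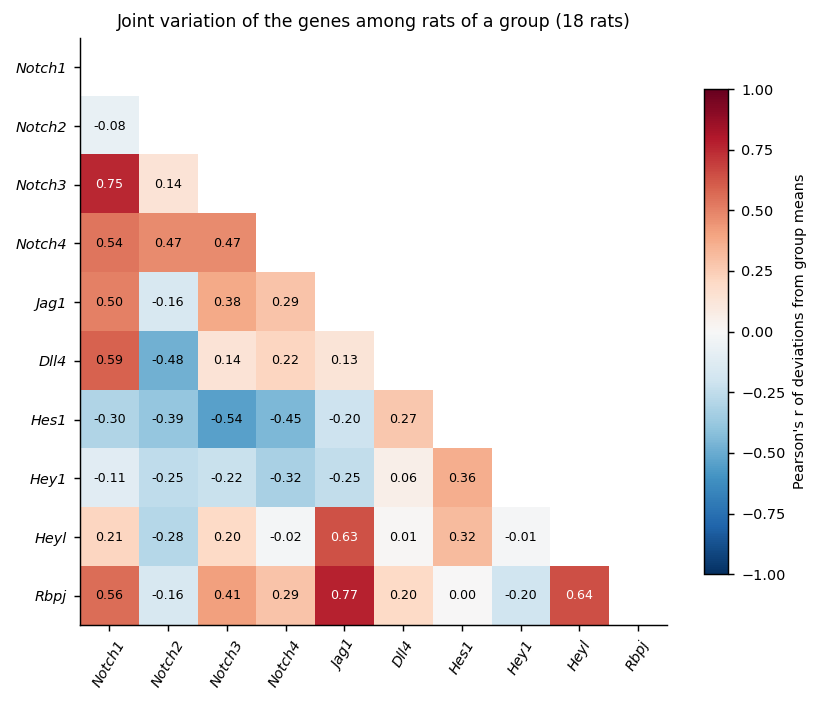
Pearson's r of the deviations of log2 CPM from group means between each pair of genes over 18 rats, on a scale from -1 (blue) to 1 (red). Jag1 with Rbpj (0.77) and Notch1 with Notch3 (0.75) are the pairs past the adjustment, and the row of Hes1 is blue against the receptors.

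Among all tested genes with at least 1 CPM on average, those most like each receptor in these deviations were Wdfy3, Spen and Shank3 for Notch1 (r of 0.94, 0.93 and 0.93), Ptprk and Eln for Notch2 (0.88 and 0.78), Smtn and Prr12 for Notch3 (0.84 and 0.83) and Vps13d, Eif4ebp3 and Usp24 for Notch4 (0.87, 0.84 and 0.84). Spen is a corepressor that binds Rbpj, and Eln and Smtn are genes of elastic fibres and smooth muscle. Peak1, Pak2 and Gna13 were most like Jag1 (0.89, 0.88 and 0.88), and Fam188b, Tgfbr3 and Efnb2, the last an arterial gene known as a Notch target, were most like Dll4 (0.79, 0.78 and 0.77). For Hes1 they were Dtx2, Jund and Bambi (0.84, 0.84 and 0.82), for Hey1 Mettl13, Plaa and Dnajc21 (0.80, 0.78 and 0.77), for Heyl Btg3, Ednrb and Nab1 (0.88, 0.87 and 0.86) and for Rbpj Tle4, Snrpd3 and Gmeb2 (0.88, 0.87 and 0.87). Dtx2, which encodes a Deltex regulator of Notch receptors, and Tle4, which encodes a Groucho corepressor, are themselves pathway genes. These genes were picked as the highest of 12903, of which 95% had an r below 0.62 with Notch1 and below 0.43 with Hes1, so the values are descriptions.

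Another 63 genes of the pathway were listed by role, of which 61 had an entry under that symbol and 48 passed the filter. In NASH relative to control 2 were higher and 1 lower (6.25% of 48, against 3.12% of all genes, 1.58% higher and 1.54% lower). In NASH-CH rats 8 passed against control, 6 upward and 2 downward (16.7%, against 17.0% of all genes, 8.38% higher and 8.6% lower). Between NASH-CH and NASH rats 2 were higher and 0 lower (4.17%, against 4.2%). These shares are near those of all genes in both NASH-CH comparisons. The median log2 fold change of the 48 genes was 0.03, -0.01 and -0.06 in the same order.

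Coactivators and corepressors of Rbpj, the longest list with 19 of the 48 tested genes, held most of the calls relative to control. The acetyltransferase gene Ep300 was higher in NASH, at 8.16 ± 0.943 CPM against 4.89 ± 1.66 in controls (SD, n = 6), which is 0.77 on the log2 scale (SE 0.20, adjusted p = 0.0445). It was also higher in NASH-CH by 0.63 (adjusted p = 0.0325), as were its paralogue Crebbp by 0.59 (adjusted p = 0.0371), the Mastermind genes Maml1 by 0.63 (adjusted p = 0.0299) and Maml2 by 0.86 (adjusted p = 0.0345), and the corepressor Ncor1 by 0.25 (adjusted p = 0.0415). The histone deacetylase gene Hdac1 was lower in NASH by 0.32 on the log2 scale (-0.32, adjusted p = 0.0349), with every NASH rat below every control rat. Hdac2 was lower in NASH-CH, at 17.8 ± 1.55 CPM against 26.1 ± 4.48 in controls (-0.53, adjusted p = 0.0138), again without overlap. Of the 19 tested genes of this list, 5 were higher and 1 lower in NASH-CH, and several single rats decided the count over all 48. It was 1, Hdac2, without NASH-CH rat 6, 2 without control rat 1, 4 or 5, 3 without NASH-CH rat 3 and 4 without control rat 3 or NASH-CH rat 2, and Hdac2 passed in each of these fits. In NASH the count went from 3 to 0 without control rat 1, 3 or 5 or NASH rat 1, 3 or 5, to 1 without control rat 4 or NASH rat 4, to 5 without NASH-CH rat 5, to 7 without NASH-CH rat 6 and to 8 without control rat 6. Both comparisons share the control rats.

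**Figure D5:**
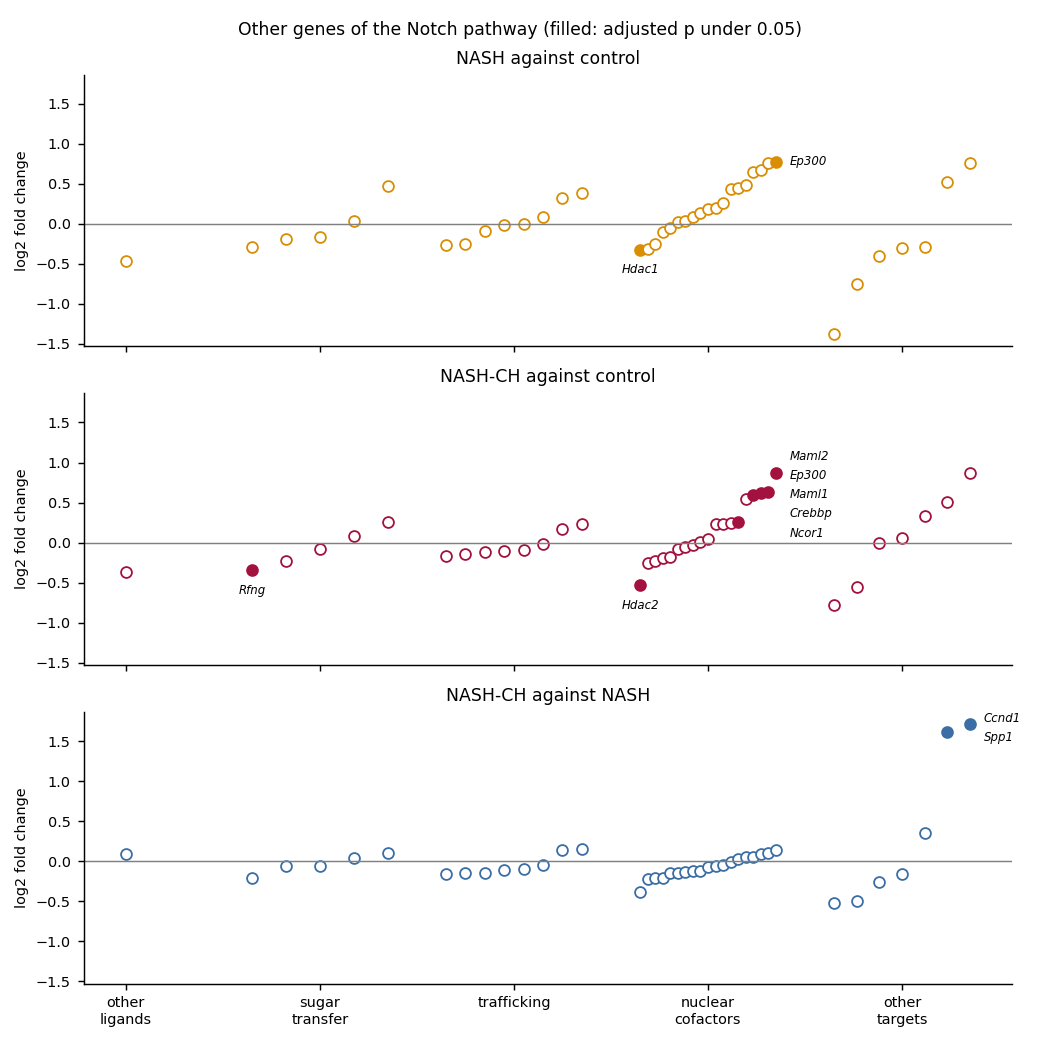
Log2 fold changes of 40 other pathway genes (vertical axis), sorted within 5 lists by role (horizontal axis), in the 3 comparisons, with points filled and named, from highest to lowest, where the adjusted p was under 0.05. In NASH-CH relative to control 6 of the 7 filled points are nuclear cofactors, which make up 19 of the 40 genes.

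Of the 5 genes that add sugars to the receptor, Rfng, a Fringe enzyme, was lower in NASH-CH, at 4.96 ± 0.683 CPM against 6.26 ± 0.750 in controls (-0.35, adjusted p = 0.0321). None of the 8 tested trafficking and ubiquitin ligase genes passed in the limma-voom fit, with log2 fold changes between -0.26 and 0.39. The highest was that of Mib1, a ubiquitin ligase that acts on Notch ligands, which ran from 23.6 to 32.4 CPM in NASH rats and from 17.7 to 23.0 CPM in controls without overlap (0.39, adjusted p = 0.0608). Mib1 passed in NASH with DESeq2's Wald test, with 2 groups alone, with library size only, with quality weights and without control rat 6 or NASH-CH rat 6, and in NASH-CH relative to control with library size only. Numb, an inhibitor of Notch receptors, passed in NASH with library size only and with quality weights, and in NASH-CH relative to control with library size only. Dll1 was the only other ligand tested, at 5.89 ± 2.62 CPM for control rats, 4.08 ± 1.23 for NASH rats and 4.44 ± 1.18 for NASH-CH rats, and it did not pass. Jag2 was below the filter, with 0.0771 to 0.560 CPM per rat. Dll3 and Dlk2 had 0 counts in all 18 rats, and Dlk1 and Dner had 0 in 16.

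Of the other target genes, Ccnd1, a G1 cyclin, and Spp1, which encodes osteopontin, were higher in NASH-CH than in NASH rats. Ccnd1 ran from 5.84 to 11.8 CPM in NASH and from 15.0 to 93.1 CPM in NASH-CH rats without overlap (1.71, SE 0.38, adjusted p = 0.0119). It ran from 14.3 to 46.2 CPM in controls, so that NASH rats were the low group, with a log2 fold change of -1.37 relative to control (adjusted p = 0.0513). Spp1 ran from 0.557 to 2.36 CPM in NASH and from 1.66 to 5.93 in NASH-CH rats (1.61, SE 0.37, adjusted p = 0.0153), and this call was lost without NASH rat 6, which left Ccnd1 alone. Nrarp, a feedback inhibitor of the pathway, averaged 3.13 ± 1.71 CPM for control rats, 2.46 ± 0.682 for NASH rats and 1.80 ± 0.541 for NASH-CH rats and did not pass in the limma-voom fit, nor did Efnb2, Myc, Snai1 and Hes6. Efnb2 passed in NASH with library size only, with quality weights and without control rat 6, and Nrarp passed in NASH-CH relative to control without control rat 1. Sox9, a target in bile duct cells, was below the filter, at 0.124 to 0.386 CPM in control, 0.0386 to 0.300 in NASH and 0.175 to 2.27 in NASH-CH rats. Hes5 and Hes7 had 0 counts in 14 of 18 rats each.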

How the data were processed

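Liver RNA of 18 rats was sequenced with a stranded TruSeq mRNA kit, per the labels. The authors trimmed adapters, aligned reads to Rnor_6.0 with STAR in 2-pass mode and deposited RSEM expected counts per gene (Ensembl release 95), with no scaling for depth or length. Versions of these tools are not given in the sources used here. Totals ran from 19498534 to 60117822 per rat, with every NASH-CH rat above all others, so depth coincides with that group.

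Expected counts were rounded, filtered with filterByExpr of edgeR 4.0.16 (12904 genes kept), scaled by TMM and tested with limma 3.58.1 (voom, moderated test) in R 4.3.3. All 18 rats shared 1 fit, with Benjamini-Hochberg adjustment over all tested genes at a threshold of 0.05, after the study's methods. Log2 CPM used a prior count of 2. Intervals of fold changes are at 95%. Correlations used 100000 permutations of rats within groups. edgeR's quasi-likelihood test and DESeq2 1.42.0 were alternatives, with other scalings, filters, weights, 1 rat left out and a replicate block. Thinning of NASH-CH counts was added after the data were seen. The tests were tried on simulated data for NASH against control, with changes larger than any of the members, so that trial does not bear on changes of their size.

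All 10 members are named. Other pathway genes are named where they passed the threshold with at least 1 CPM in the higher group (at most 10 per comparison), and the 3 genes most like each member are named; the remaining names were chosen after their values were seen. Some genes that these rules would name are not reported here, and the plot of other pathway genes leaves out the list of receptor cleavage genes. The members and lists were chosen with earlier results of these data known. Rats of a group are separate animals. No 2 rats of a group agreed within counting error (lowest chi-square per degree of freedom 28.3). Macrophage and lymphocyte marker lists were also examined. Of them 1 rose and 1 fell in NASH and 2 rose and 6 fell in NASH-CH among 10 macrophage genes, and 0 of 3 tested lymphocyte genes passed. Among 12 hepatocyte genes 1 rose and 1 fell in NASH, and 1 rose and 3 fell in NASH-CH. Of all tested genes 1.58% rose and 1.54% fell in NASH, and 8.38% rose and 8.6% fell in NASH-CH.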

Additional observations from a re-analysis of the deposited data

Results flagged for a closer look

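In 30 groups of 6 rats (10 genes in 3 groups), 4 groups held a rat that stood apart by Dixon's test at the 95% level, where about 1.5 would by chance. Notch1 was at 26.7 CPM in NASH rat 3, with the next NASH rat at 20.5, and at 26.2 CPM in NASH-CH rat 6, with the next NASH-CH rat at 13.5. Notch3 was at 2.28 CPM in NASH rat 3 (next 1.46) and Notch4 at 3.81 CPM in NASH-CH rat 6 (next 1.78). Each of these rats was flagged for a pair of receptors, and the receptors of a rat are not independent of each other.

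The log2 fold change of Dll4 relative to control was 0.59 in NASH and -0.24 in NASH-CH, and neither passed. Their difference was -0.84 (NASH-CH minus NASH, limma-voom adjusted p = 0.0458). It is the same contrast as NASH-CH relative to NASH above and not a further result. That call was lost in 15 of 18 fits with 1 rat left out and in 5 of 10 other settings.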

How the results depend on the processing

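The members were measured in 6 rats per group, NASH-CH libraries were deeper than all others, and Hey1, Notch3, Notch4 and Heyl rest on few counts in some rats. The cause of each change below was not tested.

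Relative to control, NASH had 0 members past the threshold, 1 with 2 groups alone and 2 with sample quality weights, and NASH-CH had 0, 1 with edgeR's quasi-likelihood test and 1 with DESeq2's Wald test. For NASH-CH relative to NASH the 1 call became 0 with edgeR's test, library size only, at least 10 counts in every rat, 2 groups alone and the replicate block, and 2 with no filter and with quality weights. Of the other pathway genes 3 passed in NASH, against 7 with DESeq2's test, 8 with library size only, 0 with no filter, 5 with at least 10 counts, 7 with 2 groups alone, 11 with quality weights and 1 with the replicate block. In NASH-CH 8 passed, against 2 with 2 groups alone and 4 with the block, and relative to NASH 2 passed, against 1 with 2 groups alone.

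Some fold changes changed sign. For NASH they were Notch2 at 0.23 with library size only, 0.0043 with no filter and 0.011 with quality weights, and Hey1 at 0.072 with library size only. For NASH-CH relative to control they were Notch1 at 0.029 with edgeR's test, 0.021 with DESeq2's test, 0.24 with library size only and 0.0043 with NASH-CH counts thinned (added after seeing the data), Notch2 at 0.23 and Dll4 at 0.035 with library size only, and Jag1 at -0.092 with quality weights. For NASH-CH relative to NASH it was Rbpj at -0.060 with quality weights. With library size only, the median log2 fold change over all tested genes was 0.23 for NASH and 0.27 for NASH-CH relative to control, so values under that setting are to be read against these medians.

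With 1 rat left out in turn, members called ran from 0 to 2 in NASH, 0 to 1 in NASH-CH and 0 to 2 between the models, and other pathway genes from 0 to 8, 1 to 9 and 1 to 2. Signs changed for NASH in Notch2 (-0.18 to 0.11), Hes1 (-0.0069 to 0.22) and Hey1 (-0.22 to 0.086), for NASH-CH in Notch1 (-0.20 to 0.084), Notch2 (-0.22 to 0.054) and Jag1 (-0.043 to 0.21), and between the models in Notch2 (-0.15 to 0.058), Jag1 (-0.26 to 0.0084) and Rbpj (-0.011 to 0.14).

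Rats with the same number did not deviate together (mean correlation 0.0516 for NASH and control, 0.0732 for NASH-CH and control and 0.0154 for NASH-CH and NASH), so the replicate block pairs rats that share only a number. With the block Dll4 was at -0.80 between the models (adjusted p = 0.0591).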
